A study of Mus musculus with 28 samples.

Results

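A set of 9 genes of MHC class II antigen presentation was followed in a mouse model of the arteriovenous fistula (AVF) in which the end of a jugular vein is joined to the side of a carotid artery. The 9 genes were taken by symbol from a bulk count table of 56980 genes and from 3 single-cell matrices. They are *H2-Aa*, *H2-Ab1* and *H2-Eb1*, which encode class II chains, *Cd74* (the invariant chain), *H2-DMa* and *H2-DMb1* (the peptide-exchange factor H2-M), *Ciita* (the class II transactivator), and *Cd80* and *Cd86* (costimulatory ligands). All mice were C57BL/6 males and females that first underwent 5/6 nephrectomy and later AVF creation, so the controls, contralateral jugular veins, also came from operated mice with reduced renal mass. Bulk RNA sequencing covered 25 vessels with 1 library each, namely 7 contralateral veins (5 female, 2 male), 8 early AVFs (nominal day 3; 3 female, 5 male), 5 mid AVFs (day 10; 3 female, 2 male) and 5 late AVFs (day 21; 3 female, 2 male). Single-cell RNA sequencing covered 3 libraries, of contralateral veins and of early and late AVFs, each made from a pool of 10 vessels of male and female mice. The methods of the study give other mean harvest days for the single-cell than for the bulk groups, so early and late do not mark the same days in both. They also give a wider spread of harvest days in the early bulk group than in the mid and late groups, while the labels hold nominal days alone.

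Class II molecules are heterodimers on the surface of macrophages, dendritic cells and B cells that show peptides from endosomes to CD4 T cells. The invariant chain blocks the peptide groove until it is cut in the endosome, after which H2-M helps to exchange its last fragment for an antigenic peptide. CIITA does not bind DNA itself but is recruited by the factors RFX and NF-Y, which sit on the X and Y boxes of class II promoters. CD80 and CD86 on the presenting cell engage CD28 on the T cell and are controlled separately from the class II genes. In macrophages, class II transcription is known to be induced by interferon gamma.

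The promoters of the class II chain genes are shown because their levels moved together across the vessels, as described further on, and because they carry the boxes through which CIITA acts. Both stretches were copied from RefSeq promoter sequences of GRCm38.p6, each running over the 120 bases before the annotated start of the gene and written 5′ to 3′ along the strand of the gene. Capitals mark an X-like motif (GNAACT) and, after it, the Y box (TGATTGG).
H2-Aa: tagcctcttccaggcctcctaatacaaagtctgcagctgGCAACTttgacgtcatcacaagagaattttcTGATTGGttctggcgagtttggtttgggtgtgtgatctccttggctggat
H2-Eb1: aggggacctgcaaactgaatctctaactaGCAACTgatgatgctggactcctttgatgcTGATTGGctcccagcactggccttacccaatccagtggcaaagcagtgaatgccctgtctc
The first lies at chr17:34287824-34287943 on the minus strand and the second at chr17:34305747-34305866 on the plus strand. The X-like motif began 81 bases before the start of *H2-Aa* and 91 bases before that of *H2-Eb1*, and the Y box followed 31 and 30 bases later. Promoter sequences were at hand for 5 of the 9 genes, and the ordered pair of motifs, with 15 to 40 bases between their first letters, was present in 3 of them, the third being *H2-DMb1* with a spacing of 31 bases. The pair was absent from the windows of *H2-DMa* and *Cd80*. Searched on both strands of 32851 promoters of 300 bases, the X-like motif alone occurred in 42.8%, the Y box alone in 7.82% and the ordered pair in 69 promoters (0.21%). Among 32 other genes of the pathway and class I lists with a promoter, 1 held the pair, the class II gene *H2-Eb2*. The letters were chosen after these sequences had been seen, and a match describes the sequence without showing that a factor binds there.

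Of the 9 genes, 5 lie in the MHC region of chromosome 17 (GRCm38), at 34282744 to 34287823 (*H2-Aa*, minus strand), 34257689 to 34269419 (*H2-Ab1*), 34305867 to 34316674 (*H2-Eb1*), 34119541 to 34139101 (*H2-DMa*) and 34153072 to 34160230 (*H2-DMb1*), the last 4 on the plus strand. *Ciita*, *Cd80* and *Cd86* lie on chromosome 16 and *Cd74* on chromosome 18. *H2-DMb1* has a close paralog beside it, *H2-DMb2*, so the split of counts between these 2 genes is uncertain.

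Summed counts ranged from 20254173 to 29913427 in contralateral veins, from 23676215 to 67457501 in early AVFs, from 27021483 to 33395623 in mid AVFs and from 27855449 to 36879746 in late AVFs. All 9 genes passed the filter on low counts, which asks for 100 or more DESeq2-normalized counts on average and left 12673 genes. The contralateral veins stood apart by their zeros: from 2.86% to 22.5% of tested genes had no count in a vein, against 0.110% to 4.70% in early, 0.118% to 0.300% in mid and 0.0789% to 0.237% in late AVFs. Endothelial markers (summed level 2187 to 3685 CPM) and smooth muscle markers (2831 to 6881 CPM) were abundant in every contralateral vein and lay lower in the AVFs, at 316 to 759 and 170 to 1318 CPM. Contralateral vein 28 had 11 counts of the leukocyte gene *Ptprc*.

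*Cd74* was the most abundant of the 9 transcripts. Per kilobase of merged exons, its level in late AVFs was 1606 ± 408 CPM per kb (SD, n = 5), followed by *H2-Ab1* at 730 ± 185, *H2-Eb1* at 314 ± 51.5 and *H2-Aa* at 273 ± 50.7 CPM per kb. *H2-DMb1* (86.6 ± 12.6), *H2-DMa* (32.7 ± 4.11), *Cd86* (11.8 ± 1.39), *Ciita* (3.57 ± 0.715) and *Cd80* (3.08 ± 1.58 CPM per kb) came lower. Among neighbors in this order, the late libraries overlapped between *H2-Eb1* and *H2-Aa* and between *Ciita* and *Cd80*, and did not overlap between any other pair.

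*Cd74* and the 3 chain genes were variable in early AVFs and uniformly high in mid and late AVFs. None of the 4 passed the edgeR quasi-likelihood test against contralateral veins at any time point, with *Cd74* coming closest. In late AVFs *Cd74* did pass with DESeq2 (log2 fold change 1.61, adjusted *p* = 0.00723) and with the edgeR likelihood ratio test (1.61, adjusted *p* = 0.00716). *Cd74* lay between 312 and 1730 CPM in contralateral veins (median 805) and between 428.002 and 3491 CPM in early AVFs (median 937). It was 3221, 1955, 2352, 2660 and 2110 CPM in the 5 mid AVFs and 3585, 2976, 2911, 2060 and 1948 CPM in the 5 late AVFs. Every mid and late AVF thus exceeded every contralateral vein, whereas the early AVFs overlapped both with the veins and with the later AVFs. The log2 fold change of *Cd74* against contralateral veins was 0.63 ± 0.42 (SE) in early AVFs (edgeR quasi-likelihood test, adjusted *p* = 0.300), 1.48 ± 0.46 in mid AVFs (adjusted *p* = 0.0348) and 1.61 ± 0.46 in late AVFs (adjusted *p* = 0.0229, above the threshold of 0.01). In whole vessels, a higher share of cells that carry a transcript and more of that transcript per cell cannot be told apart, which holds for every bulk value given here.

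*H2-Ab1*, the beta chain of I-A, was 300 to 1477 CPM in contralateral veins (median 762), 258 to 2092 CPM in early AVFs (median 680), 1342 to 2148 CPM in mid AVFs and 1371 to 2529 CPM in late AVFs. Its alpha partner *H2-Aa* was 159 to 1268 CPM in contralateral veins (median 628), 186 to 1490 CPM in early AVFs (median 571), 838 to 1345 CPM in mid AVFs and 784 to 1298 CPM in late AVFs. *H2-Eb1*, the beta chain of I-E, was 145 to 653 CPM in contralateral veins (median 230), 107 to 828 CPM in early AVFs (median 298), 473 to 824 CPM in mid AVFs and 473 to 738 CPM in late AVFs. For all 3 chain genes the mid and late AVFs lay above the median of the veins, some of them above every vein, and the groups overlapped, since contralateral vein 31, and for *H2-Ab1* also vein 28, had levels like those of late AVFs. Their early log2 fold changes were small, 0.06 ± 0.40 for *H2-Ab1*, 0.10 ± 0.36 for *H2-Aa* and 0.27 ± 0.36 for *H2-Eb1* (adjusted *p* of 0.941, 0.885 and 0.640). In late AVFs they were 1.07 ± 0.45, 0.73 ± 0.41 and 1.01 ± 0.40, with adjusted *p* of 0.125, 0.276 and 0.106. The gene of the alpha partner of *H2-Eb1* is a pseudogene in C57BL/6 mice, *H2-Ea-ps*, and did not pass the filter, with a mean normalized count of 0.0605.

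**Figure D1:**
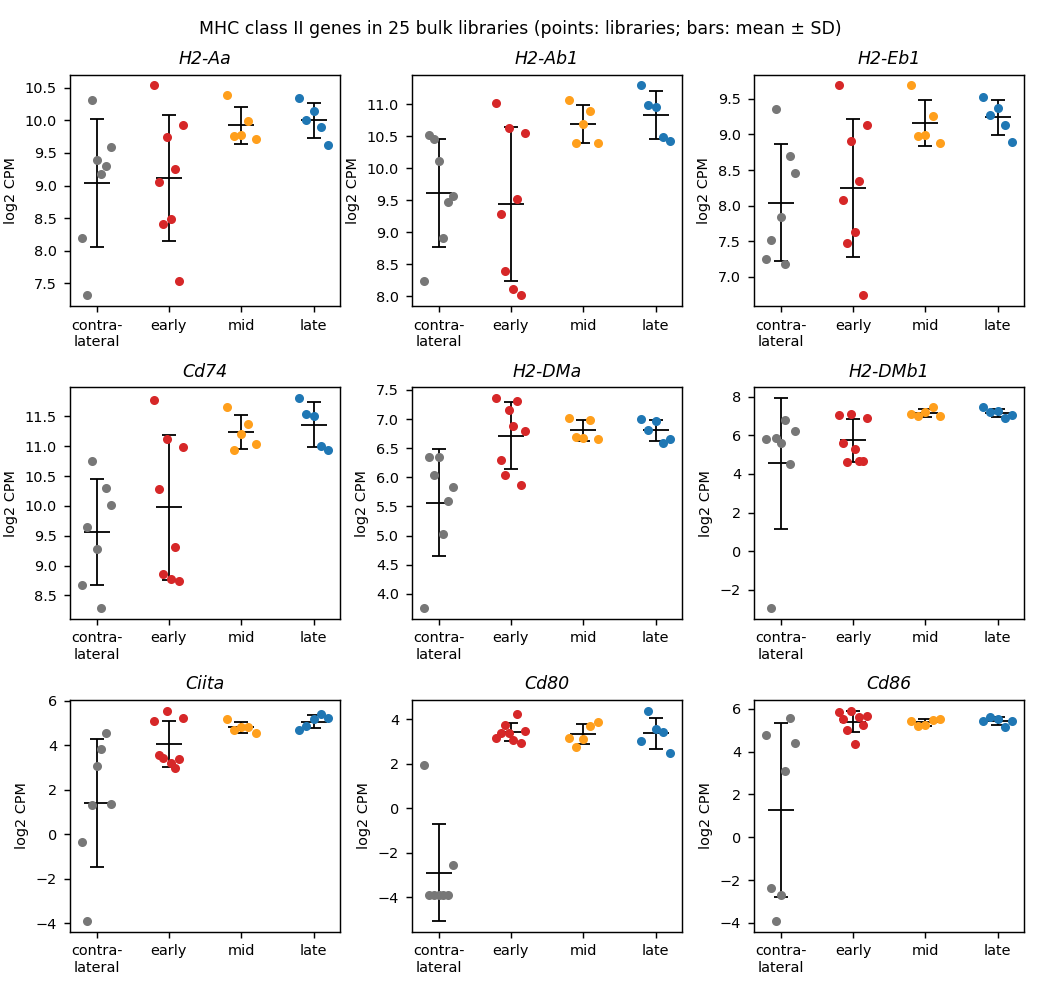
Level of each of the 9 genes (log2 CPM, vertical axis, 1 panel per gene) in the 25 bulk libraries by group (points: libraries; bars: mean ± SD). Mid and late AVFs sit close together and high for *Cd74* and the chain genes, early AVFs spread widely, and *Cd80* is near 0 counts in most contralateral veins.

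The spread of the early AVFs followed the same vessels for most genes. Early AVFs 1, 4 and 10 held the 3 highest early values for 7 of the 9 genes, all but *H2-DMa* and *Cd80*. *Cd74* was 3491, 2223 and 2018 CPM in these 3 AVFs against 1241 CPM in early AVF 2 and at most 632 CPM in early AVFs 3, 5, 6 and 7. The same 3 AVFs had the highest summed fibroblast markers of the group (14021, 16485 and 19800 CPM, against 2268 to 13892 CPM in the other 5). Their summed neutrophil markers were 283, 1363 and 343 CPM (1198 to 4419 CPM in the other 5), their summed platelet markers 93.8 to 119 CPM (267 to 1426 CPM in the others), and their summed dendritic cell markers 137 to 155 CPM (61.8 to 125 CPM in the others). Their summed mono/macro markers, at 15199 to 19824 CPM, lay inside the range of the other 5 (11055 to 33750 CPM). The 3 AVFs had a count for 25036, 24988 and 25141 genes. Early AVFs 3, 5 and 6 had one for fewer genes (21522, 19074 and 17514), and early AVFs 2 and 7 for 24033 and 25017. The part of these cell sources, of the number of detected genes and of the harvest day within the group in the class II levels was not tested.

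Neither H2-M gene passed the edgeR quasi-likelihood test at any time point. In early AVFs *H2-DMa* did pass with DESeq2 (log2 fold change 1.02, adjusted *p* = 0.00572) and with the edgeR likelihood ratio test (1.05, adjusted *p* = 0.00584). The fitted difference of *H2-DMa* was about the same at the 3 time points, and that of *H2-DMb1* was smaller in early than in mid and late AVFs, a contrast between the 2 genes that was not tested. *H2-DMa* was 13.4 to 81.6 CPM in contralateral veins (median 57.0) and 58.6 to 165 CPM in early AVFs (median 114). It was 130, 103, 102, 126 and 101 CPM in mid AVFs and 128, 113, 125, 96.0 and 101 CPM in late AVFs, so that the mid and late AVFs, but not the early AVFs, all exceeded the veins. Its log2 fold changes were 1.05 ± 0.30, 1.05 ± 0.33 and 1.05 ± 0.33 at the 3 time points, with adjusted *p* of 0.0116, 0.0348 and 0.0360. *H2-DMb1* was 0.0625 to 112 CPM in contralateral veins (median 55.2), the lowest value being a single count in vein 28. It was 131, 137 and 121 CPM in early AVFs 1, 4 and 10 and 24.6 to 48.1 CPM in the other 5, then 127 to 179 CPM in mid and 120 to 175 CPM in late AVFs, all above every vein. Its log2 fold changes were 0.38 ± 0.59, 1.43 ± 0.66 and 1.45 ± 0.66, with adjusted *p* of 0.706, 0.169 and 0.168.

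*Ciita*, whose product controls transcription of the class II chains, the invariant chain and H2-M, was measured at low levels and was close to absent in some veins. It was 0 to 23.8 CPM in contralateral veins (median 2.48), 7.85 to 47.0 CPM in early AVFs (median 11.2), 36.2, 25.5, 28.6, 28.6 and 23.2 CPM in mid AVFs and 25.5, 29.0, 35.8, 42.6 and 37.3 CPM in late AVFs. Every late AVF exceeded every vein, while the mid AVFs overlapped with vein 632, the highest of the veins. Its log2 fold changes of 1.51 ± 0.74, 1.94 ± 0.80 and 2.20 ± 0.81 did not pass the test (adjusted *p* of 0.147, 0.119 and 0.0780).

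*Cd80* was the single gene of the 9 to pass the test, in early AVFs. It had no count in 5 of 7 contralateral veins, 0.103 CPM in vein 633 and 3.76 CPM in vein 27. Every AVF lay above these values, with 7.66 to 18.9 CPM in early AVFs (median 10.5), 8.99, 6.82, 8.69, 13.0 and 14.9 CPM in mid AVFs and 8.01, 20.9, 11.9, 10.7 and 5.52 CPM in late AVFs. Its log2 fold change was 4.32 ± 1.17 in early AVFs (adjusted *p* = 0.00794), 4.23 ± 1.21 in mid AVFs (adjusted *p* = 0.0206) and 4.35 ± 1.22 in late AVFs (adjusted *p* = 0.0190), all resting on veins with few or no counts. The early call was lost in 18 of 25 fits that each left out 1 library (adjusted *p* up to 0.0150), and without vein 27 the log2 fold change was 8.83, 8.88 and 8.99 at the 3 time points, with adjusted *p* of 1.29e-07, 3.09e-07 and 3.81e-07. *Cd86*, the other CD28 ligand, spanned 0 to 47.7 CPM in contralateral veins (median 8.55), with at most 2 counts in veins 28, 31 and 34. It was 20.7 to 59.7 CPM in early AVFs (median 47.9), 36.2 to 45.5 CPM in mid AVFs and 35.3 to 49.2 CPM in late AVFs, all inside or just above the range of the veins. Its log2 fold changes of 1.57 ± 0.84, 1.47 ± 0.91 and 1.54 ± 0.91 did not pass the test (adjusted *p* of 0.191, 0.329 and 0.312).

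Counted over the 9 genes, 1 was called in early AVFs (higher), where a call is an adjusted *p* under 0.01 together with a change of 1 or more on the log2 scale in either direction. Of all tested genes 12.6% were called there, 6.17% as higher. In mid AVFs 0 were called (background 6.05%, 2.74% as higher), and in late AVFs 0 (background 5.33%, 2.49% as higher). At an unadjusted *p* under 0.05 the counts were 2, 6 and 7 genes, DESeq2 called 2, 0 and 1 of the 9 and the edgeR likelihood ratio test 2, 1 and 2. Over all 12673 genes kept by the filter, DESeq2 called 2440, 1418 and 1294. The likelihood ratio test called 1158 in mid and 1044 in late AVFs, and its early count is not given here. No share of all genes was taken at an unadjusted *p* under 0.05. The fitted difference was above 0 for 9 of 9 genes at each time point, where 49.7%, 45.9% and 46.3% of all genes were above 0. The median log2 fold change of the 9 was 0.63, 1.43 and 1.45, beside medians over all tested genes of -0.01, -0.10 and -0.09. Every AVF exceeded every contralateral vein for 1 of the 9 genes in early AVFs (*Cd80*), 4 in mid AVFs (*Cd74*, *Cd80*, *H2-DMa*, *H2-DMb1*) and 5 in late AVFs (the same 4 and *Ciita*), where 4.47%, 7.32% and 6.25% of all tested genes did so. The 3 comparisons share the 7 contralateral veins.

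**Figure D2:**
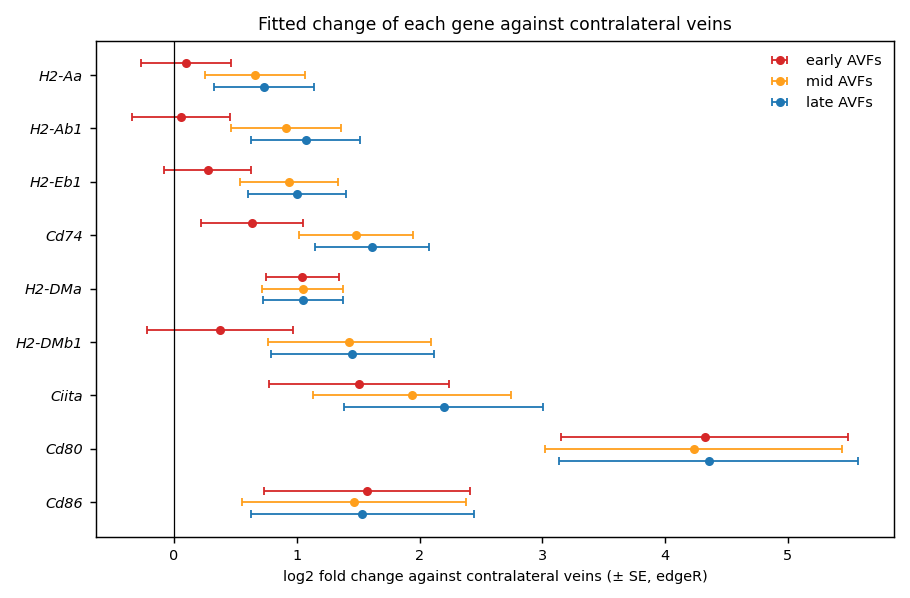
Log2 fold change of each gene against contralateral veins (horizontal axis, ± SE, edgeR) in early, mid and late AVFs. *H2-DMa*, *Cd80* and *Cd86* sit at about the same value at the 3 time points, while *Cd74*, the chain genes and *H2-DMb1* sit further right in mid and late than in early AVFs.

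Between time points, no gene of the 9 was called. From early to mid AVFs the largest fitted differences were those of *H2-DMb1* (1.05 ± 0.64), *H2-Ab1* (0.86 ± 0.43) and *Cd74* (0.85 ± 0.45 on the log2 scale), with adjusted *p* of 0.618, 0.424 and 0.475 (0.00789% of all genes called). From early to late AVFs they were those of *H2-DMb1* (1.08 ± 0.64), *H2-Ab1* (1.02 ± 0.43) and *Cd74* (0.98 ± 0.45), with adjusted *p* of 0.491, 0.202 and 0.259 (3.01% of all genes called). *H2-Ab1* and *Cd74* had an unadjusted *p* under 0.05 in the second of these comparisons (0.0259 and 0.0372), and 0 of the 9 genes in the first, while DESeq2 called 0 of the 9 in both. Mid and late AVFs differed by 0.00 to 0.26 on the log2 scale, with 0 of the 9 at an unadjusted *p* under 0.05 and 0% of all genes called (1 gene by DESeq2), and the 95% interval of that difference for *Cd74* ran from -0.85 to 1.12.

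Markers of the cells that could carry these transcripts moved as well, and not in parallel with them. The summed level of 8 mono/macro markers was 1777 to 7248 CPM in contralateral veins, 11055 to 33750 CPM in early, 10644 to 14799 CPM in mid and 7249 to 15191 CPM in late AVFs. Of the 8 markers, 7 were called higher in early AVFs, 1 in mid and 1 in late AVFs, beside 6.17%, 2.74% and 2.49% of all tested genes. By medians over the 3 time points, the summed mono/macro markers were thus highest in early AVFs and *Cd74* was lowest there. *Csf1r*, which is among these markers, did not follow the sum, with medians of 484, 477 and 581 CPM in early, mid and late AVFs. Summed dendritic cell markers were 86.5 to 510 CPM in contralateral veins, 61.8 to 155 CPM in early, 123 to 182 CPM in mid and 141 to 170 CPM in late AVFs. Summed B cell markers reached 148 CPM in contralateral vein 31, the vein with the highest *Cd74*, *H2-Aa* and *H2-Eb1*, and 127 CPM in 1 late AVF, with medians of 6.44 to 12.9 CPM in the 4 groups. Summed markers of lymph node stroma, tissue that lies near the vessels, were 87.7 to 408 CPM in contralateral veins, 25.3 to 184 CPM in early, 60.0 to 202 CPM in mid and 136 to 413 CPM in late AVFs. This sum is not specific to lymph nodes, since it includes *Ccl21a*, which led the endothelial-like cluster of the single-cell libraries. The part of these tissues in the class II levels was not tested.

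Set against a leukocyte gene of the same library, *H2-Ab1* lay low in early AVFs, below the contralateral veins and the late AVFs. The log2 ratio of *H2-Ab1* to *Ptprc*, which encodes the pan-leukocyte antigen CD45, lay between 1.67 and 10.9 in contralateral veins (median 2.56), between 0.09 and 2.76 in early AVFs (median 1.23) and between 2.47 and 3.56 in late AVFs (median 3.11). The early mean of 1.34 ± 0.99 (SD, n = 8) was lower by 2.35 than the contralateral mean of 3.69 ± 3.26 (n = 7), and the late mean of 3.04 ± 0.51 (n = 5) was higher than the early mean by 1.70. Exact two-sided permutation tests gave *p* = 0.0126 and 0.00777 for these differences, adjusted over 18 comparisons to 0.0453 and 0.0385. The first call was lost in 10 of 15 tests that left out 1 library, and without vein 28 the early difference was -1.14 (adjusted *p* = 0.119). Late and contralateral ratios did not differ by more than their spread (-0.65, exact *p* = 0.951, adjusted *p* = 0.972).

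*Cd74* gave the same order against *Ptprc*. Its log2 ratio was 0.75 to 3.49 in early AVFs and 2.98 to 4.06 in late AVFs, a difference of 1.69 (exact *p* = 0.00855, adjusted *p* = 0.0385), while early AVFs and contralateral veins (0.83 to 10.1) differed by -1.77 without passing (exact *p* = 0.106, adjusted *p* = 0.212). Against *Csf1r*, the macrophage colony-stimulating factor receptor, the log2 ratio of *H2-Ab1* was 0.54 to 2.35 in contralateral veins, -0.95 to 2.10 in early AVFs and 1.49 to 2.36 in late AVFs. The early mean was lower than the contralateral mean by 1.07 and the late mean higher than the early mean by 1.25, and neither difference passed after adjustment (exact *p* of 0.0430 and 0.0396, both 0.111 adjusted). The ratio of *Cd86* to *Ptprc* gave no call, with a late difference from early AVFs of 0.33 (exact *p* = 0.175, adjusted *p* = 0.286).

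Within the pathway, *H2-DMa* stood higher against *H2-Ab1* in early AVFs. The log2 ratio of *H2-DMa* to *H2-Ab1* was -4.48 to -3.74 in contralateral veins, -3.76 to -1.24 in early AVFs and -4.31 to -3.76 in late AVFs. Early AVFs thus lay almost wholly above the other groups, by 1.32 against contralateral veins (exact *p* = 0.00249, adjusted *p* = 0.0385), and late AVFs lay lower than early AVFs by 1.30 (exact *p* = 0.00855, adjusted *p* = 0.0385). Late AVFs and contralateral veins differed by 0.02 (exact *p* = 0.913, adjusted *p* = 0.972). The ratio of *Cd74* to *H2-Ab1* was almost constant among late AVFs (0.52 ± 0.02, n = 5) and gave no call in the 3 comparisons. The 3 calls between late and early AVFs were each lost in 10 of 13 tests that left out 1 library (adjusted *p* up to 0.0800), whereas the early call of *H2-DMa* to *H2-Ab1* was kept in 15 of 15.

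**Figure D3:**
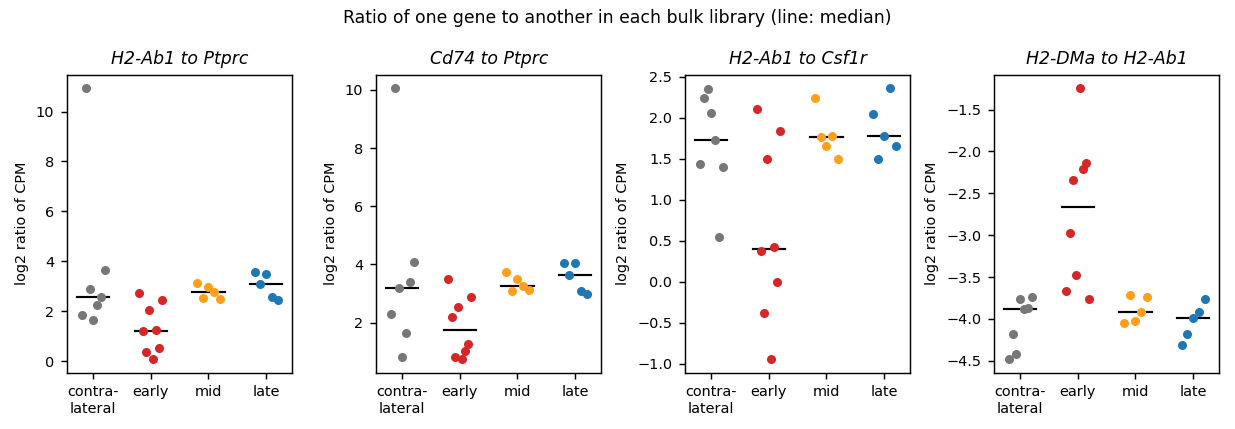
Log2 ratio of one gene to another (vertical axis, 1 panel per ratio) in each of the 25 bulk libraries by group (points: libraries; lines: medians). Early AVFs lie low for *H2-Ab1* and *Cd74* against *Ptprc* and high for *H2-DMa* against *H2-Ab1*, and contralateral vein 28 stands far above the other veins in the *Ptprc* panels.

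Some of the genes varied alike across the 25 libraries. The 6 pairs among *H2-Aa*, *H2-Ab1*, *H2-Eb1* and *Cd74* had Pearson correlations of log2 CPM between 0.75 and 0.95, the highest between *H2-Eb1* and *Cd74*. *H2-DMb1* had 0.82 with *Ciita*, 0.75 with *H2-Aa* and 0.20 with *H2-DMa*, *Ciita* had 0.67 with *H2-Aa*, and *Cd80* had 0.75 with *Cd86*. *H2-Ab1* and *Cd86* were unrelated (-0.02). These values describe 25 libraries in 4 groups that share library preparation, low counts in the same veins set part of them, and no test was made. Measured against the mean of the 4 genes, the other genes of the table with the most similar pattern were *Hepacam2* (*r* = 0.78), *Abca9*, *Arhgef25*, *Mrc2*, *Aff1*, *Ctsk*, *Mbtps1*, *Fam180a*, *9530068E07Rik* and *Kcp* (*r* = 0.74), over 25 libraries. *H2-DMa* reached 0.64, *Ciita* 0.55, *H2-DMb1* 0.53, *Cd80* 0.27 and *Cd86* 0.19 against the same mean. By Spearman rank correlation the order differed, with *H2-DMb1* at 0.80, *Ciita* at 0.64, *H2-DMa* at 0.63, *Cd86* at 0.42 and *Cd80* at 0.30. The 10 genes above, picked by Pearson correlation, had rank correlations of 0.63 (*Kcp*) to 0.77 (*Abca9*).

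Other genes of the pathway were taken from a list of 38, of which 30 passed the filter. In early AVFs 9 of the 30 were called higher and 0 lower, in mid AVFs 4 higher and 1 lower, and in late AVFs 3 higher and 1 lower, with median log2 fold changes of 0.39, 0.52 and 0.63. Of all tested genes 12.6%, 6.05% and 5.33% were called at these time points, 6.17%, 2.74% and 2.49% as higher. Of the 9 early calls, 5 were among the 7 endosomal proteases and reductases. *Ctss*, the protease that trims the invariant chain in antigen-presenting cells, was higher by 3.48, 2.21 and 1.71 on the log2 scale at the 3 time points (adjusted *p* of 5.78e-09, 2.07e-05 and 0.000517), and lower in late than in early AVFs by 1.77 (adjusted *p* = 0.00241). *Lgmn*, an asparaginyl endopeptidase, gave 2.93, 1.76 and 1.55 (adjusted *p* of 3.15e-08, 0.000191 and 0.000868) and -1.38 from early to late (adjusted *p* = 0.00545). *Ifi30*, the thiol reductase GILT, rose in early AVFs by 3.197 (adjusted *p* = 0.000117), as did the cathepsins *Ctsd* (1.90, adjusted *p* = 5.07e-07) and *Ctsb* (1.52, adjusted *p* = 4.05e-06). *Ctsd* was still called in mid AVFs (1.31, adjusted *p* = 0.000459). *Ctsh* moved the other way, with -1.23 in mid and -1.34 in late AVFs (adjusted *p* of 0.000627 and 0.000326). By fitted value, the 7 processing genes were all lower in late than in early AVFs, and *Cd74* and the 3 chain genes all higher, with *Ctss* and *Lgmn* the only calls among these 11 genes.

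*March1*, a ubiquitin ligase that removes class II and CD86 from the cell surface, was higher in early AVFs by 2.33 (adjusted *p* = 0.00976), a call that was lost without a filter on low counts (adjusted *p* = 0.0118), with a sex term (0.0205) and in females alone (0.269). Of the interferon gamma axis, the receptor subunit *Ifngr2* was called in early AVFs (1.22, adjusted *p* = 0.00130) and not later. *Ifng* itself stayed below the filter. Of 7 factors that act with CIITA on the promoter, 0 were called at any time point, with 1, 0 and 0 at an unadjusted *p* under 0.05 and 1, 0 and 0 called by DESeq2, and *Rfx5* gave -0.15, 0.67 and 1.03 (adjusted *p* of 0.949, 0.822 and 0.704). *H2-Oa*, a brake on H2-M in B cells, stayed below the filter. *Cd4*, the coreceptor for class II on T cells that monocytes can also express, was called higher at all 3 time points: it had 2 counts in all contralateral veins together, 6 of 7 having none, against 0.353 to 13.5 CPM in early, 3.63 to 11.2 CPM in mid and 8.41 to 12.4 CPM in late AVFs.

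The 9 genes of a class I list were all tested. In early AVFs 1 was called, *Psmb8*, an immunoproteasome subunit (1.00, adjusted *p* = 0.00193), and 0 were called in mid or late AVFs, with 1 at an unadjusted *p* under 0.05 in each. Of all tested genes 12.6%, 6.05% and 5.33% were called in early, mid and late AVFs. DESeq2 called 0 of the 9 at the 3 time points, and the *Psmb8* call was also lost with RLE normalization, filterByExpr, no filter on low counts, a sex term and females alone. The median log2 fold changes were 0.58, 0.13 and 0.06. *B2m*, the light chain of class I molecules, was lower in late than in early AVFs by 1.17 (adjusted *p* = 0.00623). The calls of *March1* and *Psmb8* in early AVFs and of *Ctss*, *Lgmn* and *B2m* between late and early AVFs were lost in some of the fits that left out a library.

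The single-cell libraries show which cells carried these transcripts, without a test, since each condition was 1 library. Of 26438 barcodes, 16893 passed the filters (6319 contralateral, 4753 early, 5821 late), with median UMI counts of 2751, 8951 and 15425, and 5 or 6 of the kept barcodes were shared by any pair of libraries. Levels are UMIs of a gene per 10000 UMIs of a cell class in a library, with exact Poisson 95% intervals that cover counting error only. Over all cells, *Cd74* was 12.3 in the contralateral, 25.1 in the early and 36.1 in the late library.

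Mono/macro-like, dendritic cell-like and B cell-like cells held 92.9%, 96.6% and 93.1% of all *Cd74* UMIs in the 3 libraries. Dendritic cell-like cells had the highest level, with *Cd74* at 95.4 (92.2 to 98.7) in 78 contralateral, 181 (179 to 183) in 132 early and 205 (204 to 207) in 140 late cells, and *H2-Aa* at 51.1, 98.3 and 101. The median UMI count of the contralateral dendritic cell-like cells was 2940, against 12872 and 17257 in the AVF libraries. Their *Cd86* was 0.761 (0.501 to 1.11) in the contralateral, 3.83 (3.54 to 4.13) in the early and 3.13 (2.92 to 3.36) in the late library. Since mono/macro-like cells were far more numerous, they supplied 66.2%, 73.6% and 77.3% of each library's *Cd74* UMIs, and dendritic cell-like cells 9.39%, 22.1% and 15.1%.

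B cell-like cells contributed mainly in the contralateral library, where 376 of them held 17.3% of *Cd74* UMIs and 34.3% of *Ciita* UMIs, against 0.786% and 0.740% of *Cd74* UMIs in the early and late libraries (28 and 50 cells). Their *Cd74* level was 59.4 (58.0 to 60.9), 106 (99.7 to 112) and 93.3 (89.8 to 96.9), and different clusters held them: 206 and 148 of the contralateral cells lay in 2 clusters with few AVF cells, and 22 early and 47 late cells lay in another. Plasma cell-like cells of the late library kept *Cd74* without the chains: in 25 cells *Cd74* was 46.6 (45.3 to 48.0) while *H2-Aa* was 1.21 (1.00 to 1.44) and *Ciita* was a single UMI. The 25 cells had 38.6 *Cd74* UMIs for each *H2-Aa* UMI, where late mono/macro-like, dendritic cell-like and B cell-like cells had 2.34, 2.03 and 1.99.

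Fibroblast-like, smooth muscle-like and endothelial-like cells had low levels of all class II genes. *Cd74* in fibroblast-like cells was 0.613 (0.571 to 0.657) in the contralateral, 0.228 (0.202 to 0.257) in the early and 1.96 (1.93 to 2.00) in the late library, and in endothelial-like cells 2.12, 0.782 and 2.43. A *Cd74* UMI was found in 80.6% of late fibroblast-like cells, but after thinning each cell to 1000 UMIs in 10.5%, beside 88.3% of late mono/macro-like cells. Erythroid-like cells, which should lack these genes, had *Cd74* at 0.760 in the contralateral and 0.634 in the early library, with a UMI in 8.57% and 6.11% of thinned cells (median depth 2678 and 3943 UMIs), so the levels of fibroblast-like cells in these libraries are at or below background. Contralateral endothelial-like cells exceeded the erythroid-like cells, with a *Cd74* UMI in 11.04% of thinned cells. They held 1.76% of the *Cd74* UMIs of that library from 10.2% of its UMIs, and platelet-like cells 0.291% from 1.53%. In the late library these shares were 0.0363% from 0.539% in endothelial-like, 2.79% from 51.3% in fibroblast-like and 0.0205% from 0.0711% in platelet-like cells. Whether endothelial-like cells lie above background was not tested. In the late library, with 9 erythroid-like cells, the thinned share was 10.5% in fibroblast-like, 13.7% in smooth muscle-like and 26.3% in endothelial-like cells. Doublets were not removed, and their part in these shares was not tested.

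*Cd80* was the exception to the order of cell classes. Per UMI it was higher in neutrophil-like cells, at 1.07 (0.669 to 1.62), 0.713 (0.625 to 0.811) and 1.04 (0.857 to 1.26) in the contralateral, early and late libraries, than in mono/macro-like cells, at 0.246 (0.196 to 0.304), 0.237 (0.220 to 0.255) and 0.215 (0.197 to 0.234). Fibroblast-like cells, as background, had 0.0123, 0.0334 and 0.0236. After thinning, 8.33% of early neutrophil-like and 2.45% of early mono/macro-like cells held a *Cd80* UMI, and 0.460% of early fibroblast-like cells. Neutrophil-like cells supplied 20.5% of the *Cd80* UMIs of the early library from 16.5% of its cells, and mono/macro-like cells 61.2%. Dendritic cell-like cells reached 0.676, 0.787 and 1.28. *Cd74* in the same neutrophil-like cells was 0.728, 3.92 and 7.02, in the order of the level over all cells of each library.

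**Figure D4:**
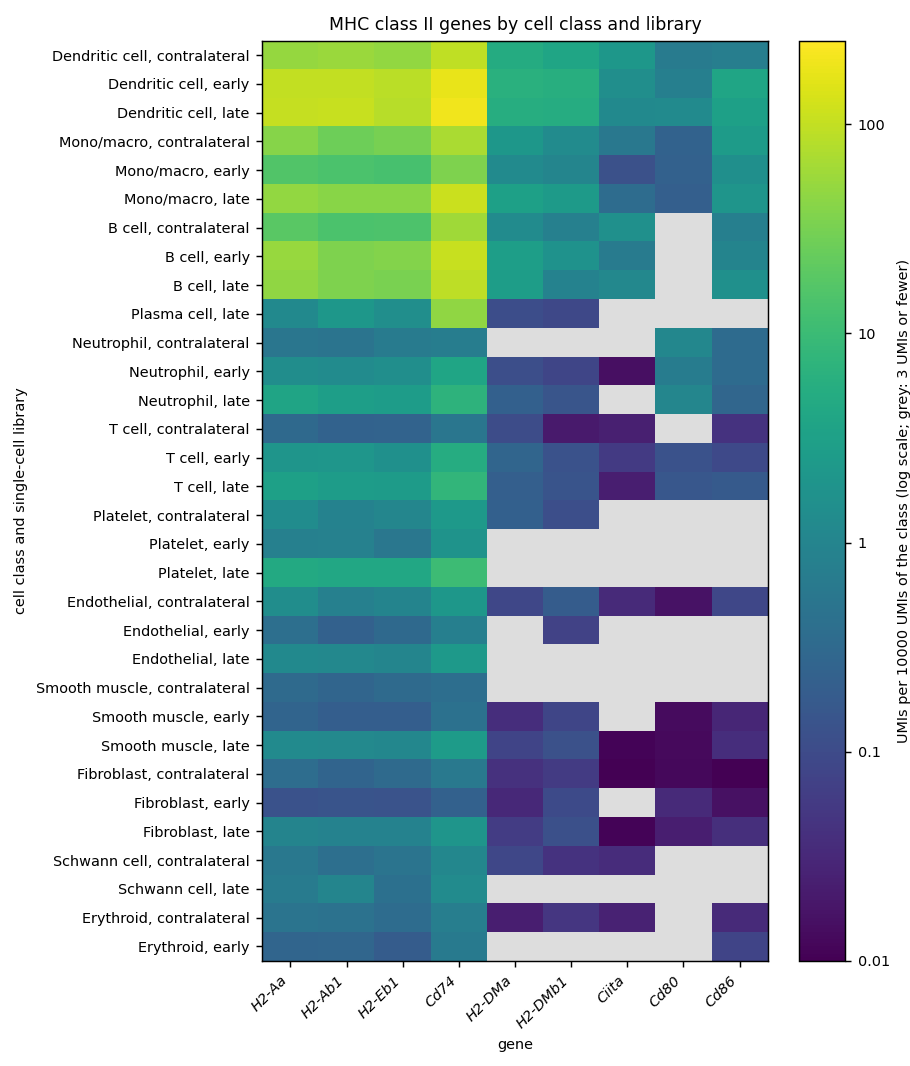
UMIs per 10000 UMIs of each gene (columns) in each cell class of each single-cell library (rows), on a log color scale, with 3 UMIs or fewer in grey. Dendritic cell, mono/macro and B cell rows are bright for *Cd74* and the chain genes, plasma cells for *Cd74* more than for the chain genes, and neutrophils for *Cd80*.

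In mono/macro-like cells, class II levels were lowest in the early library. *Cd74* was 69.8 (68.9 to 70.7) in 688 contralateral cells, 35.0 (34.8 to 35.3) in 2054 early cells and 113 (113 to 113) in 1628 late cells. *H2-Aa* was 39.2, 15.8 and 48.4, *H2-Ab1* 26.3, 14.2 and 41.7, and *H2-Eb1* 31.0, 13.2 and 40.9. These 4 genes were 2.95 to 3.22 times higher in the late than in the early library, and the early level was 0.403 to 0.538 times the contralateral level. *H2-DMa* (2.11, 1.27 and 3.14) and *H2-DMb1* (1.30, 1.00 and 2.47) followed the same order by smaller steps, and *Ciita* was 0.567, 0.122 and 0.360. *Cd86* (2.62, 1.56 and 1.99) varied less, and *Cd80* did not follow the class II genes. After thinning to 1000 UMIs, *H2-Aa* was detected in 64.3%, 38.6% and 78.5% of mono/macro-like cells and *Cd74* in 73.1%, 51.3% and 88.3%. UMIs of all 3 chain genes were found together in 56.0%, 46.5% and 90.0% of them, a share that also depends on the median depth of 3077, 13062 and 13572 UMIs.

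Different clusters made up the mono/macro-like class in the 3 libraries. Re-clustered without class II genes, 583 of the 688 contralateral cells fell in cluster 2 (resident macrophage-like, led by *Cd209f*, *Ccl8*, *Cd163* and *Lyve1*). Its leading 10 genes also held the hemoglobin genes *Hba-a1*, *Hba-a2*, *Hbb-bs* and *Hbb-bt*. Of the early cells, 991 fell in cluster 0 (unnamed, led by *Ccl8*, *Spp1* and *Saa3*), 471 in cluster 1 (monocyte-like) and 406 in cluster 4 (inflammatory macrophage-like, led by *Arg1*, *Spp1* and *Mmp12*). Of the late cells, 532 fell in cluster 3 (unnamed, led by *Ccl8* and *Hpgds*) and 420 in cluster 5. Cluster 5 was led by *Ccl8*, *Egr1* and *Slc5a3*. It was named resident macrophage-like from fixed markers, with *Lyve1* among its leading 10 genes. Its *Cd163* and *Folr2* were 70.9 and 289 CPM, near unnamed cluster 0 (89.1 and 261) and below cluster 2 (1061 and 952). Its *Lyve1* was 99.0 CPM, against 43.8 in cluster 0 and 574 in cluster 2. Whether cluster 5 holds the same kind of cell as cluster 2 was not tested. Early clusters 0 and 4, with 48.2% and 19.8% of the early cells, had *Cd74* at 23.3 (23.1 to 23.6) and 17.3 (17.0 to 17.6), while monocyte-like cells of the same library had 75.7 (75.0 to 76.5). Cluster 1 supplied 38.6% of the *Cd74* UMIs of the early class from 22.9% of its cells.

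The late library was higher within clusters as well. In each of the 7 clusters with at least 20 cells in both AVF libraries, *Cd74*, *H2-Aa*, *H2-Ab1* and *Ciita* were higher in late than in early cells, by 1.17 to 4.40 times for *Cd74* and 1.07 to 4.82 times for *H2-Aa*. *H2-Eb1*, *H2-DMa* and *H2-DMb1* were higher in 6 of the 7, and *Cd80* and *Cd86* in 3 of the 7. *Cd74* was 23.3 in early and 103 in late cells of cluster 0, 17.3 and 43.7 in inflammatory macrophage-like cells, 75.7 and 105 in monocyte-like cells, 91.1 and 126 in cluster 3, 94.5 and 124 in cluster 5, and 197 and 231 in cluster 6 (conventional dendritic cell 2-like cells that lay in the mono/macro class). Cluster 7, led by the cell-cycle genes *Top2a* and *Ube2c*, had 21.0 and 81.0. Cluster 8, found almost wholly in the late library (77 cells, unnamed, led by *Retnla* and *Mucl1*), had *Cd74* at 155 (153 to 156) and supplied 12.9% of the *Cd74* UMIs of the late class from 4.73% of its cells, with a median of 28450 UMIs per cell. Because each library is 1 pool, these differences carry no error between vessels.

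**Figure D5:**
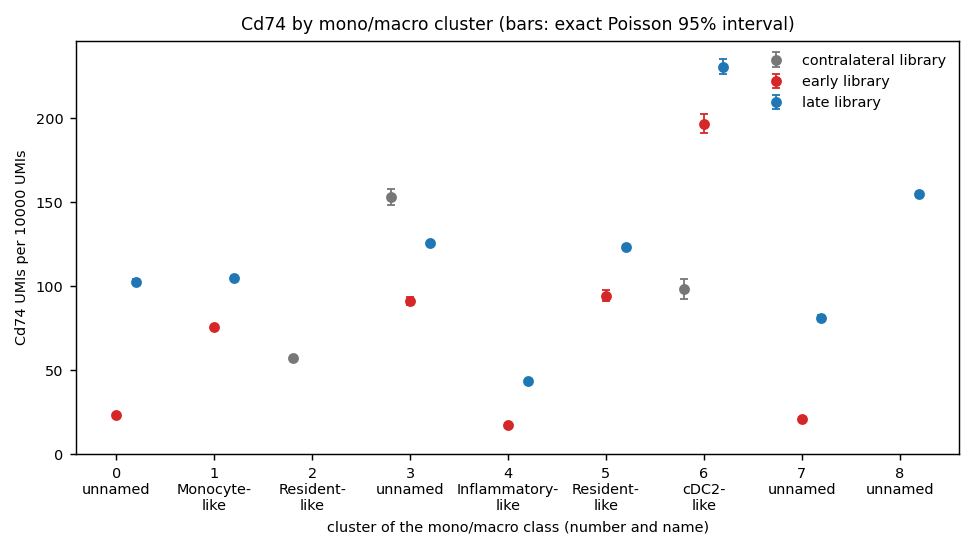
*Cd74* UMIs per 10000 UMIs (vertical axis, with exact Poisson 95% intervals) in clusters of the mono/macro class by library, for clusters with at least 20 cells of a library. In clusters 0 to 7 that have both AVF libraries the late point lies above the early point, and clusters 0, 4 and 7 have the lowest early values.

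*Lyve1*, a marker of resident macrophages, split the class in the same direction in all 3 libraries. In mono/macro-like cells with a *Lyve1* UMI, *Cd74* was 59.1 (58.2 to 60.1) in 338 contralateral, 10.9 (10.5 to 11.3) in 129 early and 93.1 (91.9 to 94.2) in 184 late cells. In cells without one, it was 91.8 (90.1 to 93.6), 37.0 (36.8 to 37.2) and 115 (115 to 116) in 350, 1925 and 1444 cells. Contralateral cells with a *Lyve1* UMI were also deeper, with a median of 5639 against 1628 UMIs, while the depths were closer in the early (15776 and 12868) and late libraries (14512 and 13480). *Cd86* was 2.63 with and 2.58 without a *Lyve1* UMI in the contralateral, 1.59 and 1.55 in the early, and 1.72 and 2.02 in the late library.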

How the data were processed

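Bulk values were whole-number gene counts deposited by the authors for 25 libraries, 1 vessel each. Single-cell values were UMI counts deposited as 3 matrices written by Cell Ranger 6.0.2 per the file headers, each from 10 pooled vessels. The submitters' processing notes name STAR, Cell Ranger, mm10 and GRCm38; for the bulk table the counting tool and annotation were not given in the sources used here. Symbols came from the single-cell matrices for 32210 genes and from a GENCODE reference for 19962, and 4808 had none. Columns that belong to no sample numbered 0. The 9 genes and all lists were chosen with earlier results of these data known. The text names the 9 genes, called genes of the pathway and class I lists with stated exceptions, and the 10 genes of most similar pattern.

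Genes that averaged 100 or more DESeq2-normalized counts (12673 of 56980, 37829 having a count) were fitted over all 4 groups by edgeR 4.0.16 (quasi-likelihood, TMM, R 4.3.3) without covariates, and *p*-values were adjusted over all tested genes (Benjamini-Hochberg). A call needed an adjusted *p* under 0.01 and a log2 change of 1 or more in either direction. CPM used TMM library sizes, and log2 values and ratios a prior count of 2. The 6 ratios, in 18 comparisons, were tested by exact two-sided permutation with a threshold of 0.05 on the adjusted *p*; the smallest possible *p* was 0.000155 (7 against 8), 0.00126 (7 against 5) and 0.000777 (8 against 5). Nothing in the labels says more of the replicates than that they are separate vessels, so *p*-values measure the spread between vessels. Pairwise Spearman correlations within groups were 0.558 to 0.838 in contralateral veins, 0.776 to 0.969 in early, 0.950 to 0.972 in mid and 0.915 to 0.964 in late AVFs.

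Cells with 200 to 6000 genes and at most 10% mitochondrial UMIs were kept (16893 of 26438), and 2000 variable genes without the 9 genes, the listed genes and naming markers, 12 components, 20 neighbors and resolution 0.5 gave the clusters (Python 3.11.15, scanpy 1.11.5, scikit-learn 1.9.0, leidenalg 0.10.2). Names came from fixed markers. The rules for shallow clusters, for the B-lineage cells and for myeloid clusters without a marker of their own among their leading 10 genes were set after the clusters had been seen, and 932 cells of 1 shallow cluster and several myeloid clusters stayed unnamed. Scrublet marked 0, 0 and 83 cells (1.43% of the late library), which is taken as a failure of the caller, so doublets were not removed. Shares were compared after thinning to 1000 UMIs, and intervals cover counting error only. DESeq2 1.42.0, other normalizations, filters, priors, sex terms, left-out libraries and other cell settings were tried as alternatives. Scripts were tested on simulated data. The result of 1 listed gene is not reported here.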

Additional observations from a re-analysis of the deposited data

Results flagged for a closer look

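In 60 groups of 4 to 10 bulk libraries examined for a library far from the others by Dixon's criterion, 5 (8.33%) had one, where chance gives about 1 in 20. Contralateral vein 28 had 0.0625 CPM of *H2-DMb1*, 1 count, where the other 6 veins had 22.6 to 112 CPM. In the same vein the log2 ratio to *Ptprc* was 10.9 for *H2-Ab1* (1.67 to 3.65 in the other veins) and 10.1 for *Cd74* (0.83 to 4.10 in the others), with 11 *Ptprc* counts. Contralateral vein 27 had 3.76 CPM of *Cd80*, 95 counts, where the others had 0 to 0.103 CPM. In early AVF 6 the log2 ratio of *Cd74* to *H2-Ab1* was -0.22, where the other 7 early AVFs had 0.42 to 1.00.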

How the results depend on the processing

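No paired analysis was possible because the library numbers of the 4 bulk groups are not shared and each single-cell condition is 1 library. Of 532 log2 fold changes of single genes under other settings, 484 kept their direction and their side of the threshold, 28 lost and 8 gained a call, and 12 changed sign; with 1 library left out these were 1741, 87, 8 and 64 of 1900. The cause was not tested.

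Of the 9 genes, those called in early AVFs were 2 with DESeq2, 2 with the edgeR likelihood ratio test and 0 in female mice alone (reported 1). In mid AVFs they were 1 with the likelihood ratio test and 1 with filterByExpr (reported 0), and in late AVFs 1 with DESeq2, 2 with the likelihood ratio test and 1 with filterByExpr (reported 0). With 1 library left out they were 0 to 2 in early, 0 to 1 in mid and 0 to 1 in late AVFs, and *H2-DMa* passed in early AVFs without veins 28 or 34, early AVFs 2, 3 or 7, or late AVF 17 (lowest adjusted *p* 0.00431 by edgeR).

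All genes called, early against contralateral, were 2440 with DESeq2, 3803 with filterByExpr, 3938 without a filter and 327 in females (reported 1599); for mid 1418, 2823, 2728 and 192, and 1158 with the likelihood ratio test (reported 767); for late 1294, 2696, 2567, 173 and 1044 (reported 676). Mid against early gave 0 with RLE, filterByExpr, a sex term or females, 474 with DESeq2 and 356 with the likelihood ratio test (reported 1). Late against early gave 753 with DESeq2, 625 with the likelihood ratio test, 208 without a filter and 0 in females (reported 381), and late against mid 1 with DESeq2 (reported 0). With 1 library left out, late against contralateral gave 432 to 889, late against early 32 to 549 and mid against early 0 to 305. Higher against lower calls in early AVFs were 782 to 817, but 2793 to 1010 with filterByExpr and 3031 to 907 without a filter, in mid AVFs 347 to 420, 2272 to 551 and 2293 to 435, and in late AVFs 315 to 361, 2209 to 487 and 2202 to 365, where the median of all genes lay at 0.19, 0.14 and 0.15 with filterByExpr and at 0.51, 0.32 and 0.43 without a filter.

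Signs changed for *H2-Ab1* early against contralateral in females (-0.11), for *H2-DMa* mid against early with a sex term (-0.0079) and in females (-0.030), late against early with a sex term (-0.0073) and late against mid with RLE and DESeq2 (-0.0058), for *Cd80* mid against early with filterByExpr (0.016) and late against early with a sex term (-0.27), and for *Cd86* mid against early with a sex term (0.019) and late against early with filterByExpr (0.035), no filter (0.0017) and a sex term (0.098).

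With 1 library left out, log2 fold changes of *Cd80* were -0.32 to 0.34 (late against early), -0.20 to 0.29 (late against mid) and -0.25 to 0.068 (mid against early), of *Cd86* -0.14 to 0.072 (late against early) and -0.23 to 0.0057 (mid against early), and of *H2-Aa* -0.14 to 0.36 (early against contralateral) and -0.030 to 0.21 (late against mid). *H2-Ab1* early against contralateral was -0.18 to 0.26, *H2-DMa* -0.089 to 0.15 (late against early), -0.052 to 0.068 (late against mid) and -0.093 to 0.12 (mid against early), *H2-DMb1* late against mid -0.056 to 0.12 and *H2-Eb1* late against mid -0.019 to 0.22. The log2 ratio of *Cd74* to *H2-Ab1* late against early was -0.12 to 0.053, of *Cd74* to *Ptprc* -0.55 to 0.99 (late against contralateral) and 1.53 to 1.92 (late against early), of *H2-Ab1* to *Csf1r* -1.28 to -0.84 (early against contralateral), -0.0040 to 0.30 (late against contralateral) and 1.03 to 1.46 (late against early), of *H2-Ab1* to *Ptprc* -2.69 to -1.14, -0.99 to 0.56 and 1.52 to 1.90, and of *H2-DMa* to *H2-Ab1* -0.054 to 0.087 (late against contralateral) and -1.45 to -1.09 (late against early).

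*Cd74* UMIs per 10000 in mono/macro-like cells were 67.3, 42.6 and 119.8 (contralateral, early, late) with up to 20% mitochondrial UMIs, where no separate dendritic cell cluster formed, 68.1 in the contralateral library without cells marked by Scrublet, 113.4 in the late library at resolution 1, and 34.3 and 110.9 in the early and late libraries with the shallow cluster included, a setting chosen after seeing the data. *H2-Aa* was 37.9, 19.999 and 52.6, 38.1, and 15.5 and 47.6 under the first, second and last of these settings. *Cd74* in dendritic cell-like cells without marked cells was 103.5 in the contralateral and 175.5 in the early library. No contralateral or early cell was marked by Scrublet. The values of these libraries under this setting thus moved only because the cells were clustered again without 83 late cells. In mono/macro-like cells the late library stayed highest and the early library lowest under these settings.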
